A study of Homo sapiens with 6 samples.

Results

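The keratins examined here were KRT5, KRT6A, KRT7, KRT8, KRT14, KRT15, KRT16, KRT17, KRT18 and KRT19, the basal, luminal and simple epithelial keratins by which bladder tumours are commonly sorted. They were picked by gene symbol, with earlier results of these data known, and make up 10 of the 58174 genes in the RNA-seq tables. Gene expression was measured in T24, an established human cell line from a bladder cancer. One group of 3 samples carried shRNA_NC, a scrambled control shRNA, and the other group of 3 samples carried shRNA_UBC9, a single shRNA against UBC9. UBC9 is the E2 enzyme that attaches SUMO, a small ubiquitin-like protein, to its targets. The UBC9 shRNA was cloned into the pLKO.1 vector and delivered by lentivirus, and infected cells were selected with puromycin. The vector and selection of the control cells are not given separately in the sources used here. Effects particular to the single UBC9 shRNA cannot be told apart from those of UBC9 loss. The labels do not say whether the 3 samples of a group came from separate cultures, so p-values measure only the spread between these samples, which may be technical.

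Keratins are the intermediate filament proteins of epithelial cells. A filament is built from pairs of a type I and a type II chain, and a chain without a partner is generally degraded. KRT8 (type II) and KRT18 (type I) form the filaments of simple epithelia, joined by KRT7 (type II) and KRT19 (type I) in ducts and in the urothelium. KRT5 (type II) pairs with KRT14 (type I) in the basal layer of stratified epithelia. KRT15 (type I) is another basal keratin, and KRT6A (type II), KRT16 and KRT17 (both type I) are induced in wounded or rapidly dividing epithelium.

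On the hg38 build the type II genes lie in a cluster on chromosome 12, with KRT7 at chr12:52232520-52252186 on the plus strand, and KRT6A at chr12:52487176-52493257, KRT5 at chr12:52514575-52520530 and KRT8 at chr12:52897187-52949954, all on the minus strand. KRT18, although type I, lies beside KRT8 at chr12:52948871-52952906 on the plus strand, and the outermost annotated ends of these genes overlap. The other type I genes lie on the minus strand of chromosome 17, in the order KRT15 at chr17:41513745-41522529, KRT19 at chr17:41523617-41528308, KRT14 at chr17:41582279-41586895, KRT16 at chr17:41609778-41615899 and KRT17 at chr17:41619442-41624842.

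The stress and basal type I keratins KRT14, KRT16 and KRT17 are close in sequence. This matters because very few recovered reads decide whether KRT14 and KRT16 are above 0 in these samples. Over 749 bases of exons 2 to 6 of the canonical GENCODE transcripts, KRT14 and KRT17 were 92.0% identical, KRT14 and KRT16 85.3%, and KRT16 and KRT17 83.6%. A stretch of 60 coding bases of exon 6, shown for each gene as transcribed, is a conserved part, closer than these exons are in general, where the genes are hard to tell apart. Capitals mark the positions at which the 3 genes are not all alike.
KRT14 (chr17:41583248-41583307, minus strand): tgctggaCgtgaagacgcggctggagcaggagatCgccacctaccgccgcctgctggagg
KRT16 (chr17:41610344-41610403, minus strand): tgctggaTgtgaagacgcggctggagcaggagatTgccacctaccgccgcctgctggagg
KRT17 (chr17:41620672-41620731, minus strand): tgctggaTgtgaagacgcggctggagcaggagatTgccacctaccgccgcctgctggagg
In this stretch KRT16 and KRT17 are the same, and KRT14 differs from both at 2 positions. Reads from here could be counted for the wrong gene, depending on how the mapper placed them. Over 100 bases the genes are easier to separate. Of all 100-base windows of the KRT17 transcript, 0.353% also occur in another annotated gene (KRT17P3, not KRT14 or KRT16), against 6.05% for KRT14, 7.12% for KRT16, 7.12% for KRT8 (in KRT8 pseudogenes) and 18.2% for KRT6A (mostly in KRT6B and KRT6C). None of the windows of KRT7, KRT15, KRT18 or KRT19 occurs in another gene on the same strand.

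Levels are in RPKM, reads scaled to the length of the gene and to the number of mapped reads, as deposited. The RPKM values step in whole reads, and whole numbers of reads could be recovered for all 15974 genes above 0 in every sample, with totals of 27471983 to 31741312 reads in the shRNA_NC samples and 26084595 to 32959097 reads in the shRNA_UBC9 samples. A count of 0 therefore allows up to 3 reads, or 0.091 to 0.115 RPM (the same scale without gene length), which covers counting error only. Genes with at least 0.5 RPKM in at least 3 of the 6 samples, 12428 in all, were compared with limma on log2(RPKM + 0.1), a scale that understates the change of low genes. A gene passed the test at a Benjamini-Hochberg adjusted p below 0.05 over all tested genes, and was called when its log2 fold change (shRNA_UBC9 over shRNA_NC) was also above 1 or below -1. All adjusted p-values below come from that limma fit, and an exact permutation test on groups of this size has 0.1 as its smallest two-sided p.

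Knockdown of UBC9 went with lower mRNA of the 4 abundant simple epithelial keratins, KRT7, KRT8, KRT18 and KRT19, to between 46.5% and 57.5% of their shRNA_NC means. The low-level keratin KRT17 was also lower, and the low-level keratin KRT15 was 4.45 times higher in the mean. KRT5, KRT6A, KRT14 and KRT16 were at or near 0 in both groups. Of the 10 keratins, 6 reached the expression filter, and of these KRT15 was called higher and KRT7 and KRT17 were called lower. Over all tested genes, 5.20% were called higher and 2.70% lower. By the adjusted p alone 1 keratin was higher and 5 were lower, where 18.8% of all tested genes were higher and 18.0% lower. The samples of the groups did not overlap for any of the 6, with 1 higher and 5 lower, where 25.7% of all tested genes had every shRNA_UBC9 sample above every shRNA_NC sample and 25.4% had every one below. KRT15 reached the filter only through the shRNA_UBC9 samples, and the shRNA_NC samples alone were enough for KRT17 to reach it, so these counts over the filtered keratins support nothing by themselves. The median log2 fold change of the 6 was -0.96, against 0.005 over all tested genes. In whole cultures, fewer cells that express a keratin and less keratin mRNA per cell cannot be told apart.

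**Figure D1:**
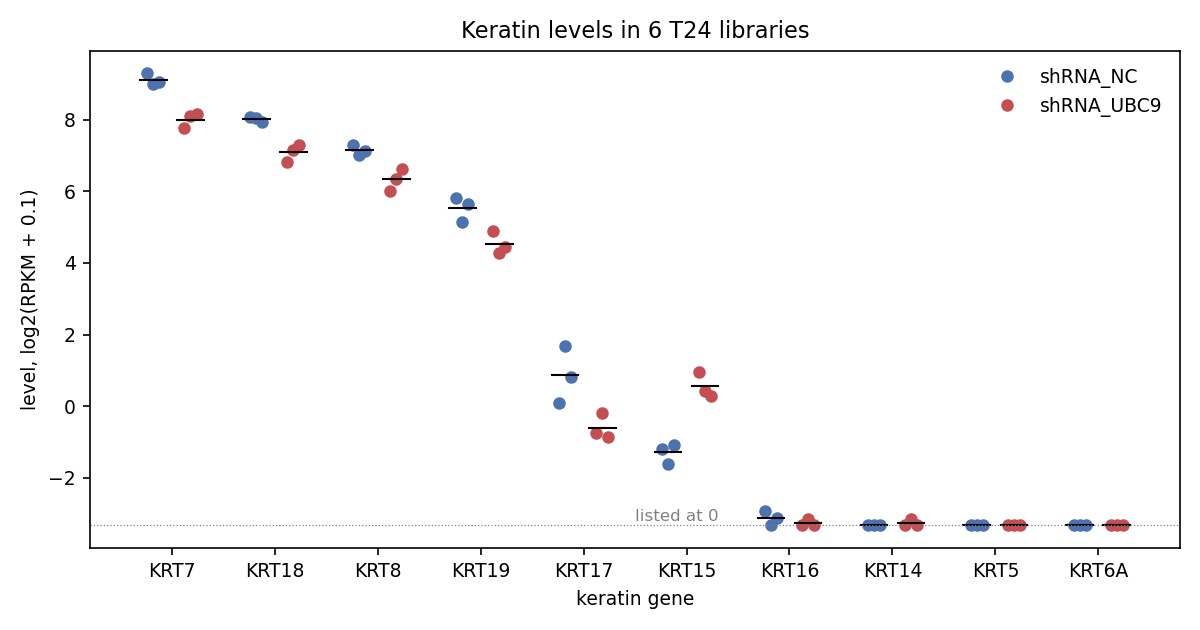
Level of each keratin as log2(RPKM + 0.1), with points for the 3 shRNA_NC and 3 shRNA_UBC9 samples and a black line at each group's mean of the log2 values. KRT7, KRT8, KRT18 and KRT19 lie lower in every shRNA_UBC9 sample than in any shRNA_NC sample, KRT15 lies higher, and KRT5 and KRT6A are at 0 throughout.

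KRT7, the type II keratin of ducts and urothelium, was the most abundant of the 10. It stood at 627, 510.2 and 530.2 RPKM in shRNA_NC replicates 1, 2 and 3, and at 216, 273 and 286 RPKM in shRNA_UBC9 replicates 1, 2 and 3. The highest shRNA_UBC9 sample thus stayed well under the lowest shRNA_NC sample. The means were 556 ± 62.3 and 258 ± 37.6 RPKM (SD, n = 3 in each group, as for all means below). The log2 fold change was -1.11 (SE 0.13, 95% interval -1.41 to -0.81, adjusted p = 0.000578). KRT7 ranked 58 in mean level among the 12428 tested genes. Between 31821 and 76557 reads lay behind each value, so the spread between samples, not counting error, set the precision. The fold change sat close to the threshold for a call, and without shRNA_UBC9 replicate 1, the lowest sample, it was -0.98 and no longer called.

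KRT8, the type II keratin of simple epithelia, was at 156, 129.8 and 139 RPKM in the shRNA_NC samples and at 64.7, 81.8 and 98.0 RPKM in the shRNA_UBC9 samples. As for KRT7, shRNA_NC replicate 1 was the highest sample and shRNA_UBC9 replicate 1 the lowest. The means of 142 ± 13.2 and 81.5 ± 16.7 RPKM differed by a log2 fold change of -0.81 (SE 0.15, 95% interval -1.16 to -0.47, adjusted p = 0.0042). KRT8 passed the test but stayed short of the fold change for a call.

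KRT18, the type I partner of KRT8, was at 268, 262 and 245 RPKM in the shRNA_NC samples, the tightest group among the abundant keratins, and at 113, 141.0 and 157 RPKM in the shRNA_UBC9 samples. The means were 259 ± 11.8 and 137 ± 21.9 RPKM. The log2 fold change was -0.93 (SE 0.12, 95% interval -1.21 to -0.65, adjusted p = 0.000959), which passed the test without a call. Without shRNA_UBC9 replicate 3, the highest of its group, KRT18 was called at -1.03. Of the 100-base windows of the KRT18 transcript, 18.5% are also found, on the opposite strand, in transcripts of KRT8, and whether the reads were counted by strand is not given in the sources used here.

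KRT19, a small type I keratin that lacks the usual tail domain, was at 56.6, 35.0 and 49.6 RPKM in the shRNA_NC samples and at 29.6, 19.3 and 21.8 RPKM in the shRNA_UBC9 samples. The groups did not overlap, but the gap between shRNA_NC replicate 2 and shRNA_UBC9 replicate 1 was small. The means of 47.1 ± 11.0 and 23.6 ± 5.39 RPKM gave a log2 fold change of -0.99 (SE 0.21, 95% interval -1.46 to -0.52, adjusted p = 0.00698). The value lay just short of a call, and KRT19 was called at -1.19 without shRNA_NC replicate 2 and at -1.17 without shRNA_UBC9 replicate 1. Quantile normalization and median scaling also moved it past the threshold, to -1.01 and -1.03.

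KRT15, the basal type I keratin, was the only one of the 10 called higher. It was at 0.341, 0.225 and 0.376 RPKM in the shRNA_NC samples, from 72, 55 and 90 reads, and at 1.82, 1.24 and 1.12 RPKM in the shRNA_UBC9 samples, from 465, 309 and 224 reads. The lowest shRNA_UBC9 sample was clear of the highest shRNA_NC sample. The means were 0.314 ± 0.0794 and 1.40 ± 0.376 RPKM and the log2 fold change was 1.84 (SE 0.24, 95% interval 1.28 to 2.40, adjusted p = 0.000996). With a pseudocount of 1 in place of 0.1 the log2 fold change was 0.86 and KRT15 was not called, and on recovered reads with voom it was 2.17. Even after the change, KRT15 was a minor keratin, at 0.289% ± 0.123 of the summed RPKM of the 10 genes against 0.0312% ± 0.00751 in the controls. KRT19, its neighbour on chromosome 17, moved in the other direction.

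KRT17, the type I keratin induced in wounds, was at 0.964, 3.11 and 1.67 RPKM in the shRNA_NC samples, from 73, 273 and 143 reads. It was at 0.492, 0.772 and 0.447 RPKM in the shRNA_UBC9 samples, from 45, 69 and 32 reads. The shRNA_NC samples were widely spread, and the lowest of them was only slightly above shRNA_UBC9 replicate 2. The means of 1.91 ± 1.09 and 0.570 ± 0.176 RPKM gave a log2 fold change of -1.47 (SE 0.38, 95% interval -2.33 to -0.61, adjusted p = 0.0172). This call was the least firm of the 3. It was lost without shRNA_NC replicate 3 (adjusted p = 0.0504), without the expression filter (adjusted p = 0.0542) and with a pseudocount of 1 (log2 fold change -0.83).

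The remaining keratins gave no comparison. KRT5 and KRT6A, the type II keratins of the basal layer and of wounds, were listed at 0 in all 6 samples. KRT14, the partner of KRT5, had 1 recovered read in shRNA_UBC9 replicate 2 (0.0124 RPKM) and was at 0 elsewhere. The recovery gives 1 read for any gene above 0 in a single sample, so this count is only the smallest possible. KRT16, the partner of KRT6A, had 2 reads in shRNA_NC replicate 1 (0.0324 RPKM) and 1 read each in shRNA_NC replicate 3 (0.0143 RPKM) and shRNA_UBC9 replicate 2 (0.0137 RPKM). As recovered, all of these lie at or under the 3 reads that a count of 0 allows. The basal pair KRT5 and KRT14 that the name of the gene group refers to was thus not detectable in T24 at this depth, and KRT15 and KRT17 were measured without it.

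**Figure D2:**
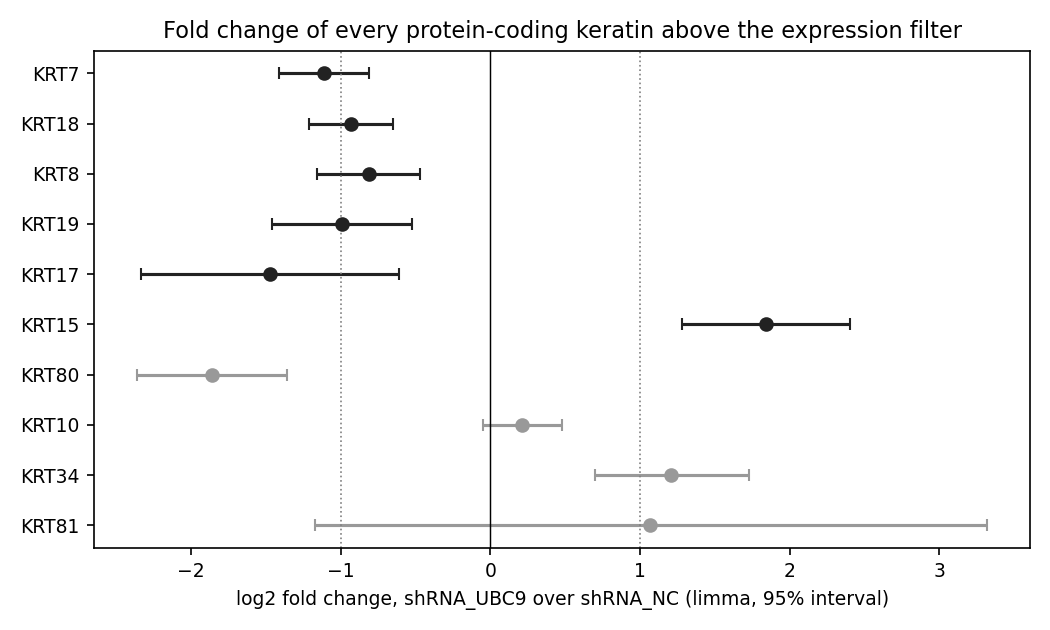
Log2 fold change (shRNA_UBC9 over shRNA_NC) with its 95% limma interval for each protein-coding keratin that reached the expression filter, the 6 keratins described above in black and 4 other keratins in grey. Dotted lines mark fold changes of 1 and -1 on the log2 scale, and the intervals of KRT10 and KRT81 include 0.

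In RPKM, the order of the abundant keratins did not differ between the groups. KRT7 was highest, followed by KRT18, KRT8 and KRT19, and no neighbours in that order overlapped in their ranges over samples in either group. An order between genes rests on the gene lengths behind the RPKM, which are not given in the sources used here. By recovered reads, not scaled to length, KRT8 was above KRT18 in every sample (32016 against 25765 reads in shRNA_NC replicate 1). Below them in RPKM, KRT17 stood above KRT15 in the shRNA_NC samples (lowest KRT17 sample 0.964 RPKM, highest KRT15 sample 0.376 RPKM). In the shRNA_UBC9 samples the order was turned, with the lowest KRT15 sample at 1.12 RPKM and the highest KRT17 sample at 0.772 RPKM. By recovered reads their ranges overlapped in the shRNA_NC samples (72, 55 and 90 for KRT15, 73, 273 and 143 for KRT17). In the shRNA_UBC9 samples KRT15 was above KRT17 by reads too (465, 309 and 224 against 45, 69 and 32). KRT5, KRT6A, KRT14 and KRT16 could not be ordered beyond their spread.

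Summed over the 10 genes, keratin mRNA was at 1109, 940.4 and 967 RPKM in the shRNA_NC samples and at 426, 518 and 564 RPKM in the shRNA_UBC9 samples. The summed level was 1005 ± 90.7 against 502.5 ± 70.6 RPKM, with no overlap. As a share of the RPKM of all genes, the keratins took 0.435% ± 0.0394 in the shRNA_NC samples and 0.213% ± 0.0277 in the shRNA_UBC9 samples.

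Type II chains (KRT7 and KRT8) summed to 697 ± 75.2 against 339.9 ± 53.7 RPKM, and type I chains (mostly KRT18 and KRT19) to 308 ± 15.9 against 162.5 ± 17.4 RPKM. The ratio of type II to type I mRNA was 2.40, 2.13 and 2.25 in the shRNA_NC samples and 1.93, 2.19 and 2.13 in the shRNA_UBC9 samples, and the groups overlapped. The KRT18 to KRT8 ratio was 1.72, 2.02 and 1.76 in the shRNA_NC samples and 1.75, 1.72 and 1.60 in the shRNA_UBC9 samples, which also overlapped. Neither partner ratio separated the groups.

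The balance between the type II chains did separate the groups. The KRT7 to KRT8 ratio was 4.02, 3.93 and 3.80 in the shRNA_NC samples and 3.33, 3.34 and 2.92 in the shRNA_UBC9 samples. KRT7 made up 55.2% ± 1.15 of the summed keratin RPKM in the shRNA_NC samples and 51.4% ± 1.21 in the shRNA_UBC9 samples, while KRT8 made up 14.1% ± 0.3 and 16.1% ± 1.14. The shares of KRT18 (25.8% ± 1.89 and 27.2% ± 0.6) and KRT19 (4.65% ± 0.808 and 4.85% ± 1.83) overlapped. These ratios and shares are descriptions with no test, and their sizes rest on the gene lengths behind the RPKM.

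**Figure D3:**
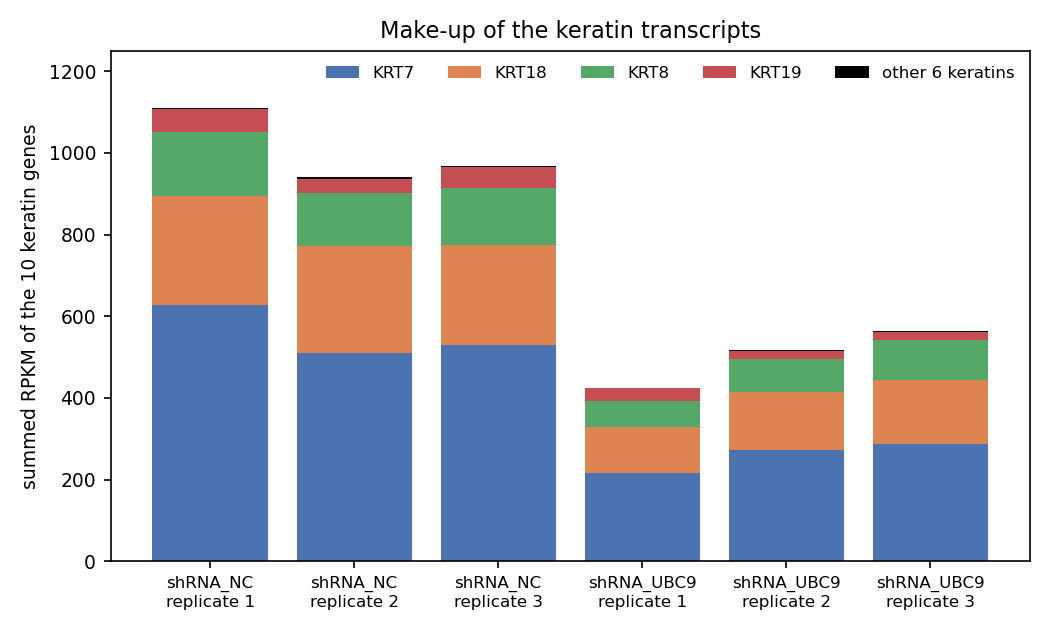
Summed RPKM of the 10 keratins in each of the 6 samples, with blocks for KRT7, KRT18, KRT8, KRT19 and the other 6 keratins together on a linear axis from 0. The shRNA_NC bars reach 940.4 to 1109 RPKM and the shRNA_UBC9 bars 426 to 564 RPKM, and KRT7 is the largest block in every bar.

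Within the shRNA_UBC9 group, KRT7, KRT8 and KRT18 shared their high and low samples. They were all lowest in shRNA_UBC9 replicate 1, with deviations from their group means of -0.25, -0.31 and -0.26 on the log2 scale, and all highest in shRNA_UBC9 replicate 3 (0.16, 0.29 and 0.21). KRT19 and KRT15 were instead highest of their group in shRNA_UBC9 replicate 1 (0.35 and 0.39). Outside the keratins, the lamin gene LMNA had the same low and high samples as KRT7. It was at 71.34, 82.55 and 95.69 RPKM in shRNA_UBC9 replicates 1, 2 and 3. The actin gene ACTB was also highest in replicate 3, with replicates 1 and 2 nearly equal (1346, 1351 and 1660 RPKM). GAPDH was highest in replicate 3 but lowest in replicate 2 (1876, 1812 and 2108 RPKM). VIM was highest in shRNA_UBC9 replicate 1. The order of KRT7, KRT8 and KRT18 over these samples was thus also that of LMNA, and so not particular to keratins. Within the shRNA_NC group, KRT7, KRT8, KRT15 and KRT19 were lowest in replicate 2 (-0.12, -0.12, -0.33 and -0.40), KRT18 was lowest in replicate 3 (-0.07), and KRT17 was highest in replicate 2 (0.82). KRT7, KRT8, KRT18 and KRT19 were highest in shRNA_NC replicate 1 (0.18, 0.14, 0.05 and 0.29). That sample and shRNA_UBC9 replicate 3 each had the fewest reads of their group (see the closing part). Over the 6 samples, the Pearson r of log2(RPKM + 0.1) was 0.98 between KRT8 and KRT18, 0.988 between KRT7 and KRT18 and -0.984 between KRT15 and KRT18. The group difference itself is part of each r, and the genes share libraries and depth. The tested genes outside the 10 whose pattern over the 6 samples was most like that of KRT7 were FN3KRP (r = 0.9993), TCF25, NCOA6, CPNE7 and FBXO10 (r = 0.9963). Those most like KRT15 were ADM2 (r = 0.9993), RAB11FIP3, CYB561D1, MORN4 and METRNL (r = 0.9978).

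Most other keratin genes were silent in these cells. Of 18 other epithelial keratins, 11 were at 0 in every sample and 2 reached the filter, and KRT20, the keratin of umbrella cells, and KRT6B and KRT6C were among those at 0. KRT13, a keratin of the intermediate urothelial layer, had at most 3 reads in a sample. KRT80, a type II keratin at chr12:52168996-52192014 near KRT7, was at 15.6, 19.2 and 14.0 RPKM in the shRNA_NC samples and at 3.04, 4.96 and 5.52 RPKM in the shRNA_UBC9 samples. Its log2 fold change of -1.86 (SE 0.22, adjusted p = 0.000563) was called. KRT10, the type I keratin of the upper epidermis, was at 12.2 ± 1.44 and 14.1 ± 1.42 RPKM and did not pass the test (log2 fold change 0.21, adjusted p = 0.186).

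Of 26 hair and root sheath keratins, 18 were at 0 in every sample and 2 reached the filter. KRT34, a type I hair keratin, was at 0.440, 0.363 and 0.422 RPKM in the shRNA_NC samples and at 1.44, 1.04 and 0.830 RPKM in the shRNA_UBC9 samples, and was called higher (log2 fold change 1.21, SE 0.22, adjusted p = 0.00432). Like KRT15, it rested on few reads (22 to 91 per sample), reached the filter only through the shRNA_UBC9 samples and was not called with a pseudocount of 1 (0.57). KRT81, a type II hair keratin with close paralogs, was at 1.22, 17.9 and 1.18 RPKM in the shRNA_NC samples and at 13.1, 2.97 and 6.80 RPKM in the shRNA_UBC9 samples. With shRNA_NC replicate 2 far above the other two, its log2 fold change was 1.07 (SE 0.98, adjusted p = 0.421), and without that sample it was 2.33 (adjusted p = 0.0164).

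Keratin pseudogenes took few reads. Of 136 listed, 10 were above 0 in any sample and 1 reached 0.5 RPKM in any sample. The highest was KRT8P12, at 0.449 ± 0.108 and 0.552 ± 0.0183 RPKM, which did not pass the test (log2 fold change 0.27, adjusted p = 0.376). KRT18P59 was at 0.113 ± 0.0325 and 0.0786 ± 0.0169 RPKM, and KRT8P42 was listed at 0 in the shRNA_NC samples and at 0.0304 ± 0.0268 RPKM in the shRNA_UBC9 samples. These levels are small beside those of KRT8 and KRT18.

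KRT7-AS, the antisense gene inside the KRT7 locus at chr12:52245048-52247448, moved with KRT7. It was at 15.6, 13.9 and 14.6 RPKM in the shRNA_NC samples and at 7.68, 7.71 and 7.83 RPKM in the shRNA_UBC9 samples (log2 fold change -0.92, SE 0.08, adjusted p = 0.000182, not called). Of its 100-base windows, 11.7% lie opposite the KRT7 transcript, and without stranded counting reads of the 2 genes cannot be told apart there.

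Genes of the proteins that hold keratin filaments to junctions or bind them showed no common direction. Of 17 such genes, 15 were tested, with 4 higher and 4 lower by the adjusted p, 7 that did not pass, and a median log2 fold change of 0.01. Over all tested genes, 18.8% were higher and 18.0% lower by the adjusted p, so the counts for this list are read only against that background. PPL, the plakin periplakin, which ties keratins to the cell border, was called lower, at 2.31, 1.33 and 2.78 RPKM against 0.235, 0.199 and 0.161 RPKM (log2 fold change -2.85, adjusted p = 0.000251). It reached the filter only through the shRNA_NC samples. PKP2, a desmosomal plakophilin, was at 1.95, 3.77 and 1.82 against 1.10, 0.931 and 0.891 RPKM and was called lower (log2 fold change -1.21, adjusted p = 0.00778), though not without shRNA_NC replicate 2 (-0.89) or with a pseudocount of 1 (-0.79).

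DSP, desmoplakin, the main anchor of keratins at desmosomes, was called higher, at 3.95, 9.36 and 4.44 against 22.0, 11.3 and 9.92 RPKM (log2 fold change 1.29, adjusted p = 0.0274). Its call was lost without shRNA_NC replicate 1 (adjusted p = 0.0968), without shRNA_NC replicate 3 (adjusted p = 0.0923), without shRNA_UBC9 replicate 1 (adjusted p = 0.0557) and without the expression filter (adjusted p = 0.077). FAM83H and TRADD passed the test upwards, as did the plakophilin PKP3 except without shRNA_NC replicate 3 (adjusted p = 0.0559). The plakin DST passed it downwards (log2 fold change -0.91) and was called without shRNA_UBC9 replicate 1 (-1.11). YWHAE also passed downwards (log2 fold change -0.24, adjusted p = 0.0326), but missed the threshold when any of the 6 samples was left out (adjusted p = 0.0547 to 0.103) and without the expression filter (adjusted p = 0.113). PLEC, plectin, a linker at hemidesmosomes, was at 48.8 ± 10.4 and 50.3 ± 7.23 RPKM (log2 fold change 0.05, adjusted p = 0.818).

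Of 16 other intermediate filament genes, 7 were tested and none was called, while SYNM, LMNB1 and LMNB2 passed the test downwards (median log2 fold change of the list -0.38), where 18.0% of all tested genes were lower by the adjusted p. The nuclear lamin LMNB1 had a log2 fold change of -0.67 (adjusted p = 0.00377) and the lamin LMNB2 one of -0.55 (adjusted p = 0.019). LMNB2 did not pass without shRNA_NC replicate 1 (adjusted p = 0.0656), shRNA_NC replicate 2 (adjusted p = 0.0544) or shRNA_UBC9 replicate 2 (adjusted p = 0.0516), and SYNM did not pass without shRNA_UBC9 replicate 2 (adjusted p = 0.0629). VIM, vimentin, the filament protein of mesenchymal cells, was at 496, 416 and 492 RPKM in the shRNA_NC samples and at 474, 286 and 338 RPKM in the shRNA_UBC9 samples, and did not pass the test (log2 fold change -0.38, adjusted p = 0.121). Per summed keratin RPKM, vimentin was at 0.447, 0.442 and 0.509 in the shRNA_NC samples and at 1.11, 0.552 and 0.600 in the shRNA_UBC9 samples, with no overlap and shRNA_UBC9 replicate 1 apart from the rest. The keratin sum in this ratio itself differed without overlap, so the ratio repeats the keratin difference and says nothing of vimentin alone.

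Of 18 transcription factors of epithelial and urothelial cells, 10 were tested, with 2 higher and 5 lower by the adjusted p (18.8% and 18.0% of all tested genes) and a median log2 fold change of -0.11. PPARG, a nuclear receptor of luminal urothelial differentiation, was called lower, at 14.5, 17.5 and 20.6 against 6.83, 2.49 and 3.32 RPKM (log2 fold change -2.15, adjusted p = 0.00169). FOXA1, a luminal factor that often acts with it, was called lower, at 12.0, 10.5 and 12.1 against 4.32, 6.23 and 5.80 RPKM (log2 fold change -1.08, adjusted p = 0.000951), but not without shRNA_UBC9 replicate 1 (-0.92) or with a pseudocount of 1 (-0.97). GATA3, the other luminal factor, passed the test at -0.79 (adjusted p = 0.016) and was called without shRNA_NC replicate 2 (-1.04), but it did not pass without shRNA_NC replicate 1 (adjusted p = 0.0611) or shRNA_NC replicate 3 (adjusted p = 0.0575). KLF5 passed the test upwards (log2 fold change 0.54, adjusted p = 0.00374) and SP1 downwards (log2 fold change -0.28, adjusted p = 0.0423). Neither was called.

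TFAP2A, an AP-2 factor of ectoderm and epidermis, was called lower, at 3.28, 3.50 and 3.62 against 0.999, 1.21 and 1.41 RPKM (log2 fold change -1.46, adjusted p = 0.000244). EHF, an epithelial ETS factor, was called higher, at 0.0229, 0.145 and 0.0943 against 5.03, 1.04 and 0.929 RPKM (log2 fold change 3.33, adjusted p = 0.00361). It reached the filter only through the shRNA_UBC9 samples, among which replicate 1 was far above the others. TP63, the master factor of basal epithelium, had at most 1 read in a sample.

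**Figure D4:**
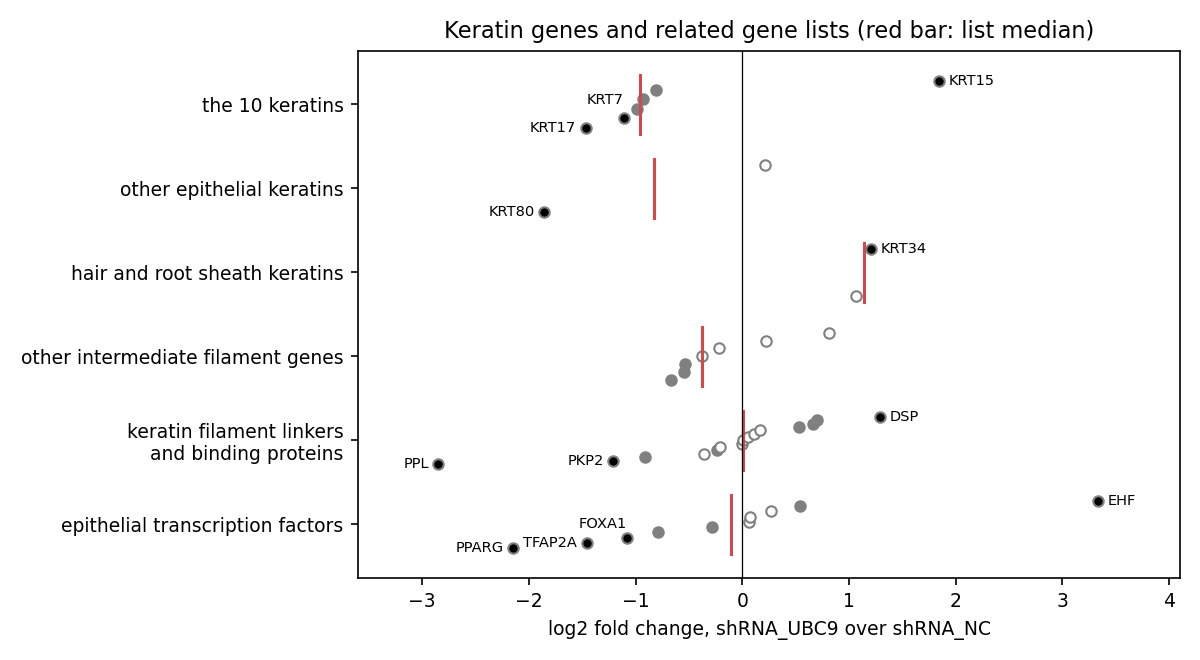
Log2 fold change (shRNA_UBC9 over shRNA_NC) of every tested gene of the 10 keratins and of 5 related gene lists, with a red bar at each list's median. Black points with a name are called, grey points passed the adjusted p only and open points did not pass, and the median of the keratins lies at -0.96.

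Markers of cell identity were read beside the keratins. All 5 uroplakins, which coat the urothelial surface, stayed below 0.5 RPKM in every sample, with sums of 0.192 to 0.283 RPKM in the shRNA_NC and 0.137 to 0.329 RPKM in the shRNA_UBC9 samples. The 6 epithelial markers summed to 3.04 to 4.45 and 1.82 to 4.16 RPKM, and CDH1, E-cadherin, was listed at 0 in 5 of 6 samples. Among them ITGB4, the hemidesmosomal integrin, was called lower (log2 fold change -2.69, adjusted p = 0.00112), having reached the filter only through the shRNA_NC samples, while EPCAM did not pass the test (1.0, adjusted p = 0.0984) except without shRNA_UBC9 replicate 3 (1.39, adjusted p = 0.0229). All 5 mesenchymal markers were above 1 RPKM in every sample, summing to 958 to 1270 and 636 to 1370 RPKM. Of these SNAI2, a repressor of epithelial genes, passed the test upwards (log2 fold change 0.82, adjusted p = 0.000778). The other 4 did not pass and had negative log2 fold changes: VIM (-0.38), FN1 (-0.3), CDH2 (-0.13) and ZEB1 (-0.06). The median of the mesenchymal markers was -0.13. T24 thus held abundant simple epithelial keratins beside mesenchymal markers and almost no E-cadherin or uroplakin mRNA.

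Markers of other cell types were low. The 6 fibroblast markers summed to 0.983 to 1.33 and 0.882 to 1.30 RPKM. Among them PDGFRB was called lower (log2 fold change -1.48, adjusted p = 0.00325), except with a pseudocount of 1 (-0.55). It reached the filter only through the shRNA_NC samples. COL1A1 passed upwards (log2 fold change 0.95, adjusted p = 0.0276), but not without shRNA_NC replicate 1 or 3 or shRNA_UBC9 replicate 1 or 2 (adjusted p = 0.0698 to 0.0903), and was called without shRNA_NC replicate 2 (1.18) or shRNA_UBC9 replicate 3 (1.11). Nor did it pass without the expression filter (adjusted p = 0.0639) or with the replicate number as a block (adjusted p = 0.0522). It was also called with a pseudocount of 0.01 (1.12) and with voom (1.15). The 5 leukocyte markers summed to 0.657 to 1.41 and 0.752 to 1.74 RPKM. Among them PTPRC, CD3E and LYZ were at 0 in shRNA_NC replicate 1 and shRNA_UBC9 replicate 3. They were above 0 in every other sample, LYZ with 25, 32, 50 and 37 reads. This split of the samples ran across both groups, and its cause was not tested. The 4 endothelial markers summed to 2.64 to 3.26 RPKM in the shRNA_NC samples and to 0.338 to 1.07 RPKM in the shRNA_UBC9 samples, through CDH5 (log2 fold change -2.20, adjusted p = 0.00288). Their part in the keratin differences was not tested.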

How the data were processed

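Polyadenylated RNA of T24 cells was made into TruSeq libraries and sequenced on an Illumina instrument. The authors mapped the reads to hg38 with CLC Biomedical Genomics Workbench 4 at default settings and deposited 1 RPKM table per sample. The annotation release, the strand setting and the treatment of multi-mapping reads are not given in the sources used here, so genes with near-identical copies or overlapping neighbours are uncertain. Samples were grouped by their labels.

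RPKM was taken to log2(RPKM + 0.1). Genes with at least 0.5 RPKM in at least 3 of 6 samples were fitted over all 6 samples with limma 3.58.1 in R 4.3.3 (eBayes with an intensity trend, Benjamini-Hochberg adjustment). The call rule follows the study. No count model was the main test, since the files hold RPKM. Whole reads were recovered from the RPKM steps to within 0.001 reads, as the smallest whole-number solution, for 100% of the genes above 0 in all samples, and were fitted with voom as an alternative that was added once the data had been seen. Replicate numbers share only a number (see the closing part). No pair of samples held identical values.

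The named genes were all 10 keratins, for each related list at most 5 called genes by size of change (or the highest in level), the 5 genes most like KRT7 and KRT15, and the 3 highest keratin pseudogenes. KRT7-AS, KRT10, KRT13, KRT20, KRT6B, KRT6C, KRT81, PLEC, TP63, GATA3, other genes that passed the adjusted p only, and the markers were named in addition, after their values were seen. ACTB and GAPDH were also named after their values were seen. The level of the gene targeted by the shRNA is not reported here. The keratins and the lists were chosen with earlier results of these data known. Loci, exons and windows come from GENCODE release 44 on hg38. The fits were tested on simulated data. Python 3.11.15 with numpy 2.4.6, pandas 2.3.3, scipy 1.17.1 and numba 0.67.0 was used, and matplotlib 3.10.9 for figures.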

Additional observations from a re-analysis of the deposited data

How the results depend on the processing

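No keratin changed direction under any alternative tried. With a pseudocount of 1, 391 genes were called higher and 161 lower, KRT15 (0.86) and KRT17 (-0.83) lost their calls, which left 0 keratins higher and 1 lower, and no hair keratin was called (0). With at least 1 RPKM asked in every sample, 342 genes were called higher and 210 lower, KRT15 and KRT17 could not be tested, and called counts were 0 keratins higher, 1 keratin lower, 0 hair keratins, 1 linker and 2 transcription factors. Without a filter KRT17 (-1.47) was not called, which left 1 keratin lower. By the adjusted p alone, 2339 genes were higher and 2237 lower, among them 5 keratins lower. KRT19 was called under quantile normalization (-1.01) and median scaling (-1.03).

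Leaving out each sample in turn gave 604 to 702 genes called higher and 308 to 363 lower, 1 keratin higher and 1 to 3 lower, 1 to 2 hair keratins, 0 to 1 other intermediate filament genes, 2 to 3 linkers and 3 to 5 transcription factors. Log2 fold changes ranged from -1.19 to -0.98 for KRT7, -0.96 to -0.66 for KRT8, -1.03 to -0.80 for KRT18, -1.19 to -0.84 for KRT19, -1.86 to -1.06 for KRT17 and 1.65 to 1.97 for KRT15. The causes were not tested.

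Replicate numbers did not pair the samples: the correlations of deviations between samples of the same number were -0.367, 0.0728 and -0.17. The highest correlation across the groups was 0.526, between shRNA_NC replicate 1 and shRNA_UBC9 replicate 3. Each of these had the fewest reads of its group, and PTPRC, CD3E and LYZ were at 0 in both. KRT7, KRT8 and KRT18 were highest of their group in these same samples. A link between samples of different numbers was not tested. A fit with the replicate number as a block called 642 genes higher and 332 lower and changed no call of a keratin. Depth limits KRT5, KRT6A, KRT14 and KRT16, which by the recovered reads lay within the 3 reads that a count of 0 allows.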

Other observations

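Promoter windows around a gene's start, mostly upstream of it, were found in RefSeq for 2 of the 10 keratins, KRT5 and KRT8. None of 3 motifs searched on both strands was found in either window: the AP-1 site TGANTCA, held by 7.71% of 35116 windows, the TATA box TATAAA, held by 11.5%, and the GC box GGGCGG, held by 45.0%. These letters are only absent from these windows, and the window of KRT8 lies at an upstream start away from its canonical transcript.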
